A study of Homo sapiens with 12 samples.

Results

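Lysine lactylation writers and erasers are enzymes proposed to attach a lactyl group to lysine side chains, or to take it off again. The 10 genes described here are AARS1, AARS2, EP300, CREBBP, KAT2A and KAT5 on the writer side, and HDAC1, HDAC2, HDAC3 and SIRT3 on the eraser side. The rule lists them by name and sets no threshold on measured values, and they were looked up by symbol among 20307 Ensembl gene identifiers. Each of the 10 matched an identifier, and each was among the 13645 genes kept for testing, which reached at least 1 TPM (a transcript abundance corrected for length and scaled to the same total in each library) in at least 2 of 12 libraries.

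Messenger RNA was sequenced from Hep3B and Huh7, established human hepatocellular carcinoma cell lines. Hep3B cells formed 4 groups: WWL70 at 20 µM together with lenvatinib at a dose that the labels do not give, lenvatinib alone at 20 µM, WWL70 alone at 20 µM, and a control. Huh7 cells formed a group labelled as lenvatinib resistant and a control. Each group had 2 libraries, named A1 and B1. Lenvatinib is a kinase inhibitor used in liver cancer that blocks VEGF and FGF receptors among others, while WWL70 blocks ABHD6, an enzyme that hydrolyses monoacylglycerol lipids. The labels give no exposure time or vehicle, and do not say whether the resistant cells were 1 clone, whether they were kept in drug, or whether A1 and B1 were separate cultures. All p-values below rest on the spread between these libraries, and that spread may be technical.

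Lactylation joins the carbon skeleton of lactate to lysine. EP300 was the enzyme first proposed to do this on histones, with lactyl-CoA as donor, while AARS1 and AARS2 have been proposed to activate lactate itself with ATP, as they activate alanine for its tRNA. HDAC1, HDAC2, HDAC3 and SIRT3 are lysine deacetylases that can also remove lactyl groups. Liver cancer cells make lactate from pyruvate through lactate dehydrogenase, of which LDHA is the main subunit. Every one of these enzymes has other, better known substrates, and mRNA levels measure neither their activity nor lactylation.

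Few of the 10 genes changed with drug treatment, and more of them differed between the cell lines. A gene counts as changed at a Benjamini-Hochberg adjusted p under 0.05 in limma, adjusted over all 13645 tested genes. In Hep3B, 1 of the 10 (AARS1) fell with WWL70 plus lenvatinib, where 8.85% of all tested genes passed. None of the 10 passed with lenvatinib alone, where 2.48% of tested genes passed and 1 member (AARS1) had an unadjusted p under 0.05, as did 13.4% of tested genes. None passed with WWL70 alone, where 0.0147% passed (2 genes) and 1 member (HDAC1) had an unadjusted p under 0.05, as did 2.87% of tested genes. In Huh7, 2 of the 10 (HDAC1 and KAT2A) fell in resistant cells, where 18.9% passed. Between the untreated lines 4 of 10 differed (HDAC1 and HDAC3 higher in Huh7, KAT5 and SIRT3 lower), where 34.4% of all tested genes passed. In each comparison the members' count lay near what the share of all tested genes gives for 10 genes, so it sets the members apart from other genes in none of them. Without the 3 A1 libraries described next, the count between the lines was 8, and 68.8% of tested genes passed in that setting. The 3 Hep3B treatment comparisons use the same control libraries.

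**Figure D1:**
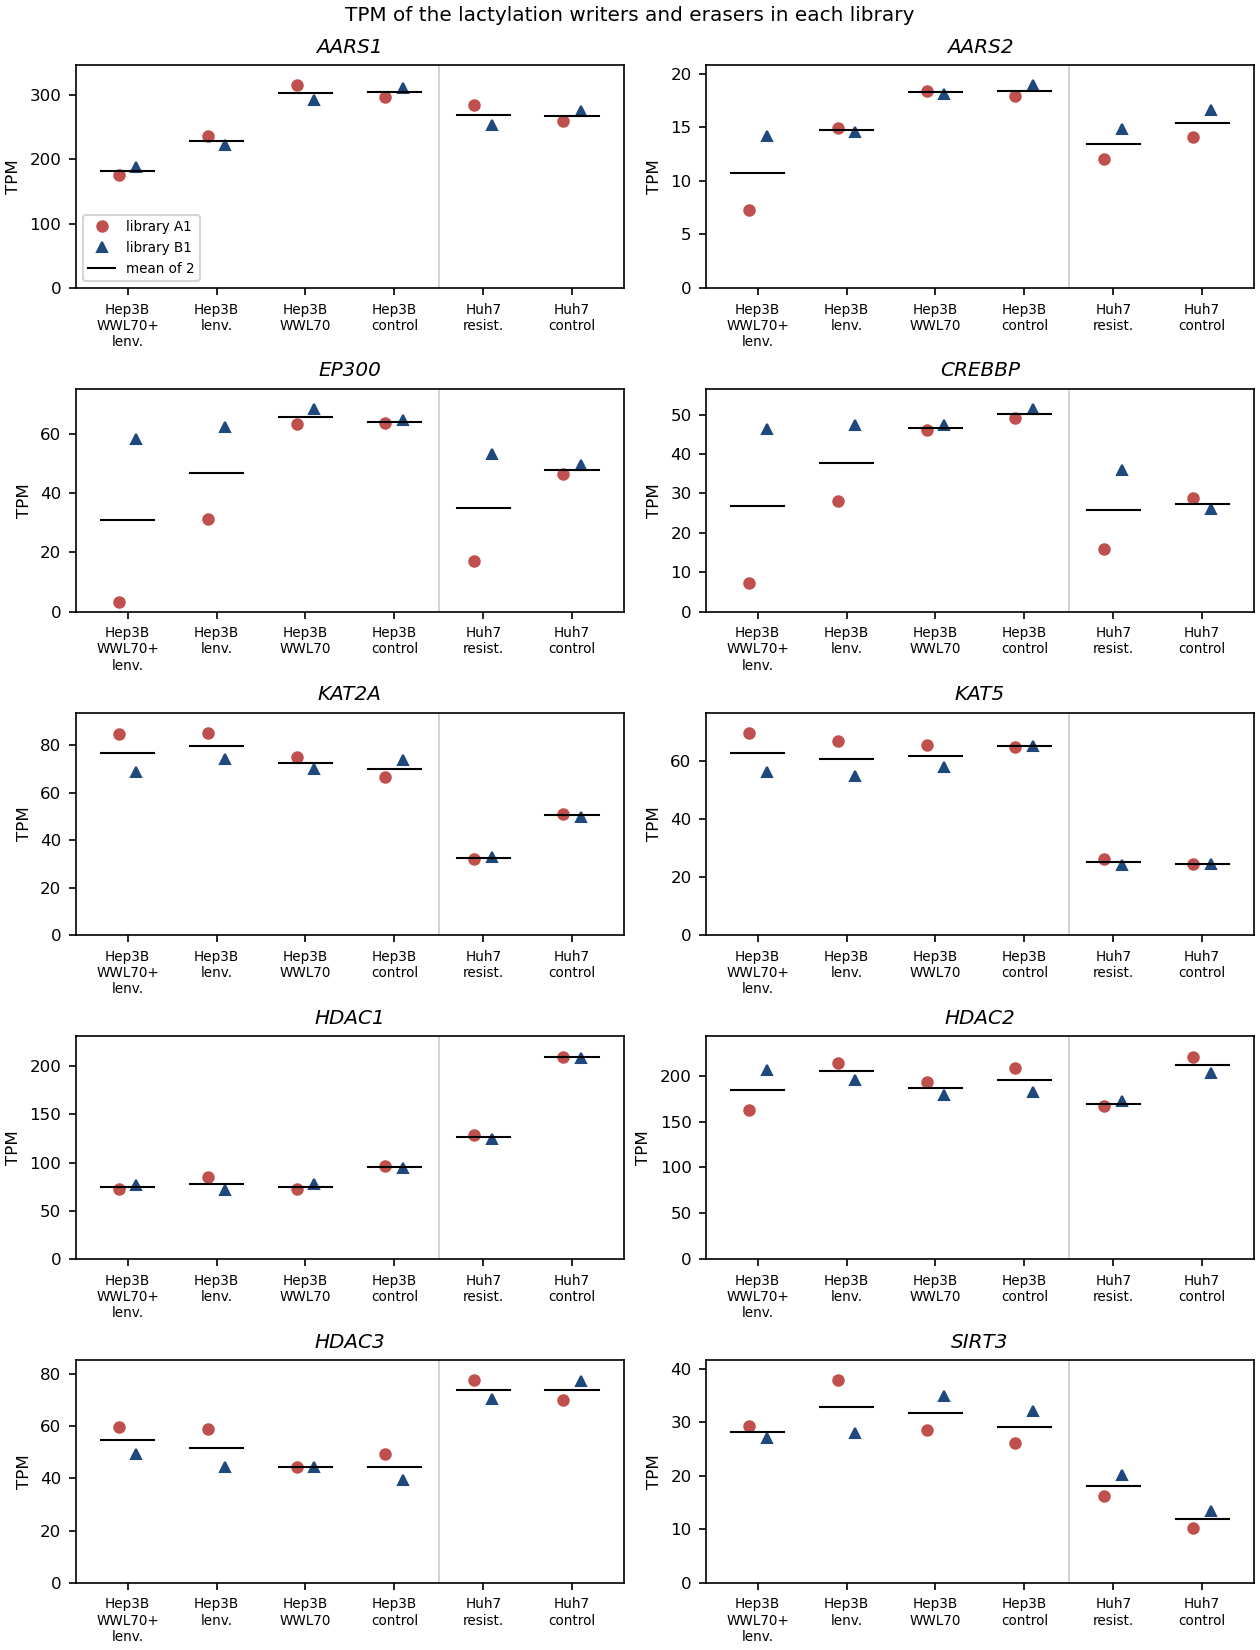
TPM (vertical axis, linear from 0) of each of the 10 genes in the 12 libraries, by group along the horizontal axis, with library A1 as circles, library B1 as triangles and the mean of both as a line. AARS1 is lowest with WWL70 plus lenvatinib (176 and 187 TPM), HDAC1 highest in Huh7 control cells (209.7 and 209 TPM), and EP300 and CREBBP are low in the A1 libraries of 3 groups.

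All libraries carried the markers of liver cancer cells: 6 of 6 hepatocyte and hepatoma genes were detected in each. Their levels were not uniform. ALB lay between 10323 and 37468 TPM, SERPINA1 between 3294 and 12442 TPM and HNF4A between 57.5 and 186 TPM. AFP ranged more widely, from 10.1 to 25229 TPM, as did TTR from 93.2 to 2934 TPM and APOA2 from 913 to 24365 TPM. Markers of other cells also moved with the groups. Of 4 leukocyte markers, PTPRC and CD3E stayed at or under 0.518 TPM, and the sum of all 4, mostly CD68 and LYZ, was 96.0 to 101 TPM in resistant cells and 527 to 555 TPM in Huh7 control cells, and 43.7 to 76.0 TPM with WWL70 plus lenvatinib and 124 to 146 TPM in Hep3B control cells. Of 4 fibroblast markers, DCN stayed at or under 0.416 TPM, and the sum with COL1A1, COL3A1 and LUM was 20.1 to 25.7 TPM in resistant cells, against 1.96 to 2.16 TPM in Huh7 control cells, and up to 10.95 TPM in Hep3B groups. Of 3 endothelial markers, VWF stayed at or under 0.249 TPM, and the sum with PECAM1 and CDH5 was 6.39 to 8.34 TPM in resistant cells, against 11.5 to 11.9 TPM in Huh7 control cells, and up to 2.05 TPM in Hep3B groups. The part of these transcripts in the results was not tested. TPM records no sequencing depth, so depth is unknown, and between 14602 and 15474 genes were above 0 in a library. The median absolute log2 difference between A1 and B1 over tested genes was 0.11 in Hep3B control cells, 0.13 with WWL70 and 0.11 in Huh7 control cells. It was 0.76 with WWL70 plus lenvatinib, 0.24 with lenvatinib and 0.32 in resistant cells. In these last 3 groups the A1 library stood apart by transcript length. Against control, Spearman's rho of the log2 difference with length over 13573 genes was -0.54 in A1 and -0.001 in B1 with WWL70 plus lenvatinib, -0.35 and 0.03 with lenvatinib, and -0.31 and 0.06 in resistant cells. With its A1 library left out, each of these 3 groups keeps 1 library, and the spread comes from the control and WWL70 pairs alone. Results that rest on these 3 A1 libraries are given with and without them, an alternative added after the values were seen. Without them more genes passed in all: 25.2% of tested genes with WWL70 plus lenvatinib, 19.3% with lenvatinib and 47.4% in resistant cells.

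AARS1, the cytosolic alanyl-tRNA synthetase, had the highest median level of the 10 genes (268 TPM over 12 libraries). It is on chromosome 16 at 70252295 to 70289543, minus strand, of GRCh38 (ENSG00000090861), and the annotation names 1 AARS1 pseudogene, so its level is uncertain to the extent that reads were shared. Its levels were 176 and 187 TPM with WWL70 plus lenvatinib, 236 and 222 TPM with lenvatinib, 315 and 293 TPM with WWL70, and 296 and 311 TPM in Hep3B control cells. Both combination libraries were thus below every other library of the series, and both lenvatinib libraries were below every library of WWL70 and control cells. In Huh7 it had 284 and 253 TPM in resistant cells, against 259.7 and 275 TPM in control cells, and these overlapped.

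In limma, AARS1 fell with WWL70 plus lenvatinib by 0.74 on the log2(TPM + 1) scale (SE 0.13, adjusted p = 0.0124). It also fell in the combination against WWL70 alone (log2 -0.74, SE 0.13, adjusted p = 0.0144), a comparison in which no other member passed and 7.9% of tested genes did. That second call was lost without either WWL70 library. Median-ratio scaling, the fit within the cell line, array weights and length adjustment each lost it too. Lenvatinib alone gave log2 -0.41 (SE 0.13, adjusted p = 0.183), and the combination against lenvatinib alone gave log2 -0.33 (SE 0.13, 95% interval -0.63 to -0.04, adjusted p = 0.431), which became 0.01 under median-ratio scaling. No member passed in that last comparison, where 0.022% of tested genes passed (3 genes) and 1 member, AARS1, had an unadjusted p under 0.05, as did 11.1% of tested genes. WWL70 alone gave a 95% interval of -0.30 to 0.30 (log2), and resistance one of -0.29 to 0.30 around 0.00. In bulk samples fewer cells of a type and less RNA per cell cannot be told apart.

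Across all tested genes the median log2 fold change with WWL70 plus lenvatinib was -0.34, so AARS1 lay 0.40 below that median, at percentile 28.2. Median-ratio scaling divides each library by its median ratio to the gene means, taken over genes detected in every library. Under that scaling the AARS1 fold change was log2 -0.30 (adjusted p = 0.363), and the call was lost. It was also lost with array weights (adjusted p = 0.303), with length adjustment (log2 -0.29, adjusted p = 0.32), and without Hep3B control A1 or B1. Without the 3 A1 libraries the AARS1 fold change was log2 -0.69 with the combination and -0.45 with lenvatinib. In that setting each of these 2 groups has 1 library, so neither has a spread of its own. The summed TPM of the 6 hepatocyte and hepatoma markers moved with the fall: it ranged from 57974 to 64430 with WWL70 plus lenvatinib, from 42310 to 43836 with lenvatinib, and from 28294 to 28450 in Hep3B control cells. The sum of the leukocyte markers was 43.7 to 76.0 TPM with WWL70 plus lenvatinib and 124 to 146 TPM in Hep3B control cells. The part of these movements in the AARS1 values and in those of the lists below was not tested.

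Other enzymes that charge tRNAs fell in the same cells. Of 22 other cytosolic aminoacyl-tRNA synthetases and their scaffold proteins, 13 fell and 0 rose with WWL70 plus lenvatinib (median log2 -0.90 against -0.34 over all tested genes, of which 6.41% fell). They included GARS1 (292 ± 38.5 TPM against 619 ± 24.8 TPM in control, SD, n = 2 each, log2 -1.09) and WARS1 (72.8 ± 22.6 against 223 ± 7.37 TPM, log2 -1.63), which charge glycine and tryptophan, as well as YARS1 and CARS1. With lenvatinib alone 2 fell (GARS1, log2 -0.88, and WARS1, log2 -1.35), while 1.1% of tested genes fell, and 22 of 22 fold changes were negative, with a median of -0.55. With WWL70 alone 0 passed (median -0.14, and 0 at an unadjusted p under 0.05). The count with WWL70 plus lenvatinib was 15 without the 3 A1 libraries, 5 under median-ratio scaling, between 1 and 17 when single libraries were left out, at 1 without either Hep3B control, 4 without either Huh7 control and 5 without either WWL70 library, and 0 with array weights. With lenvatinib alone the count was 14 without the 3 A1 libraries, and 0 without either Hep3B control or either lenvatinib library.

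In resistant Huh7 cells 8 of the 22 fell and 0 rose, among them VARS1 (44.5 ± 3.04 TPM against 96.5 ± 0.0431 TPM in control, SD, n = 2 each, log2 -1.10), FARSB (log2 -1.07), YARS1 (log2 -0.74) and EEF1E1 (log2 -0.78), while 6.63% of tested genes fell. The median was -0.65 in that comparison, where AARS1 stood at 0.00. The count was 16 without the 3 A1 libraries, 15 without either combination library, 4 without either resistant library, and 3 and 2 without Huh7 control A1 and B1. The test of the resistance effect minus the lenvatinib effect gave log2 0.41 for AARS1 (SE 0.19, adjusted p = 0.303), and 0 of the 10 members passed it, against 6.3% of tested genes. It had 1 member (KAT2A) at an unadjusted p under 0.05, as had 17.4% of tested genes.

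**Figure D2:**
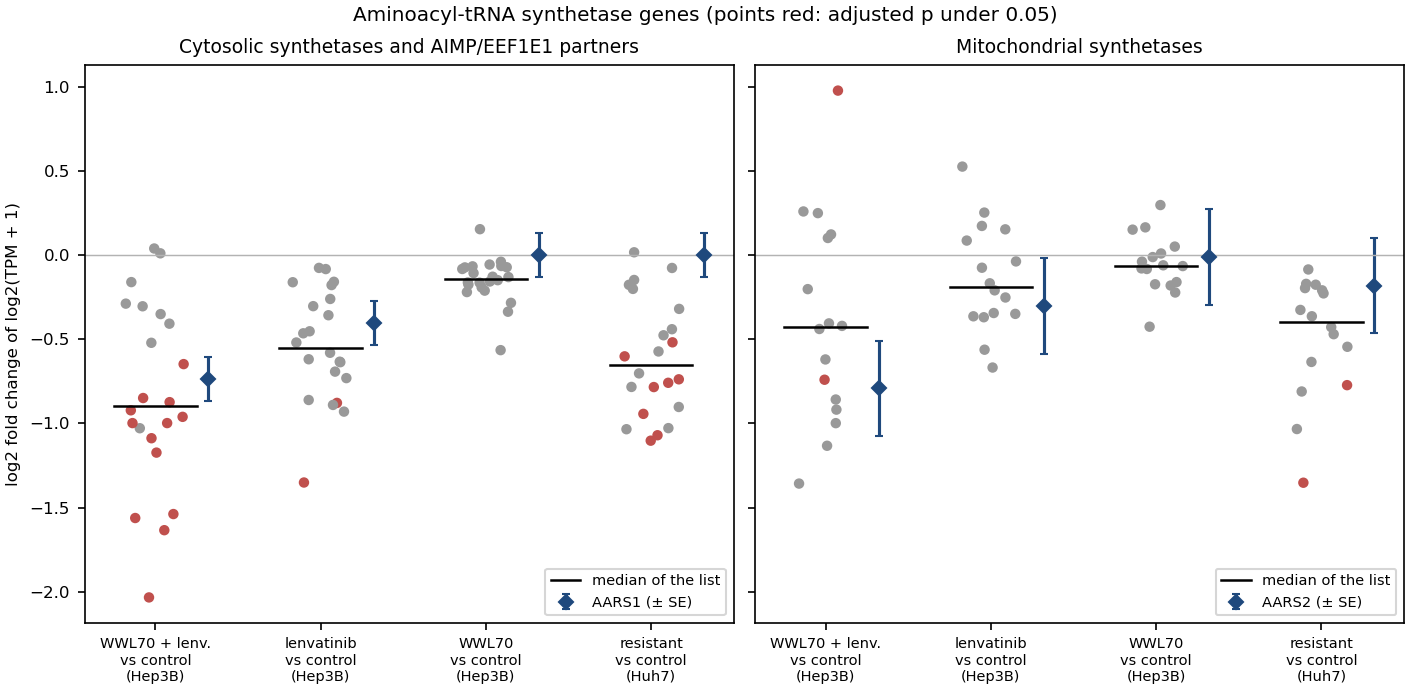
Log2 fold change of log2(TPM + 1) (vertical axis) of aminoacyl-tRNA synthetase genes in 4 comparisons, cytosolic on the left and mitochondrial on the right, each point a gene, red where the adjusted p was under 0.05, the line the list's median, and the diamond AARS1 or AARS2 with its SE. The cytosolic median is -0.90 with WWL70 plus lenvatinib, -0.55 with lenvatinib, -0.14 with WWL70 and -0.65 in resistant cells, where AARS1 is at 0.00.

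Several cytosolic synthetase genes share a short promoter element. TGATGNAAN is the core of the amino acid response element, at which ATF4 pairs with C/EBP proteins when amino acids run short, a role known from ASNS and other genes. It was searched on both strands of RefSeq promoters (GRCh38.p14, 250 bases before to 50 after the start). The element was present in 1268 of 35116 promoters (3.61%), in 7 of 27 promoters of the cytosolic list with AARS1 (7 of 19 genes with a promoter), and in 1 of 10 promoters of the members, which is that of AARS1. The table held a promoter for 9 of the 10 members, all but AARS2. The sequences below read 5′ to 3′ in the direction of the element, with the element in capitals, so that its shared core and varying neighbours can be compared. They are AARS1 at chr16:70289676-70289704 (plus strand), GARS1 at chr7:30594834-30594862 (minus), CARS1 at chr11:3057408-3057436 (plus), IARS1 at chr9:92293693-92293721 (plus), TARS1 at chr5:33440956-33440984 (minus), MARS1 at chr12:57488053-57488081 (minus), NARS1 at chr18:57621804-57621832 (minus) and, for comparison, ASNS at chr7:97872458-97872486 (minus).
AARS1: ctaacttggcTGATGCAACtgcgagaaaa
GARS1: gctcggagcaTGATGAAATcgccgcgtaa
CARS1: tcctagaatcTGATGCAACcgccgccccg
IARS1: cgcacggaggTGATGCAACgcgctgaaaa
TARS1: ctggaccagcTGATGCAATcgaaaggcgc
MARS1: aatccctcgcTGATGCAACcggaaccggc
NARS1: ctacgctctcTGATGCAACgccggaatcg
ASNS: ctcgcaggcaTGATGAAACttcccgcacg

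In AARS1 the element lay 188 bases before the RefSeq start and read against the gene. Its surroundings on the gene's own strand, from 250 to 101 bases before the start (chr16:70289607-70289756, minus strand), are printed with the reverse complement of the element in capitals.
AARS1 promoter: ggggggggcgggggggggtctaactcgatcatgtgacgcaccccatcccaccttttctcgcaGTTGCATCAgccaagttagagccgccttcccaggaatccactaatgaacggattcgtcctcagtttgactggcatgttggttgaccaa
Of the 7 genes with the element, GARS1, CARS1, IARS1, TARS1, NARS1 and MARS1 were, like AARS1, among those that fell with WWL70 plus lenvatinib. The other 7 list genes that fell (YARS1, WARS1, AIMP1, EPRS1, LARS1, EEF1E1 and SARS1) were not among the genes with the element. Promoters were at hand for only 19 genes of the list with AARS1, so some of these 7 may not have been searched. Of the amino acid response list 3 of 16 promoters held the element. A match of letters is a description and shows no binding.

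Genes of the amino acid response list, chosen with earlier results of these data known, also fell. With WWL70 plus lenvatinib 6 of 10 fell and 0 rose, while 6.41% of tested genes fell (median log2 -1.08 against -0.34 over all tested genes), including DDIT4 (28.7 ± 0.589 against 128 ± 12.2 TPM in control, SD, n = 2 each) and PSAT1, a serine synthesis enzyme (257 ± 79.2 against 663 ± 5.55 TPM). With lenvatinib alone 4 fell (DDIT4, PSAT1, ASNS and TRIB3) and 0 rose, with a median of -0.98 against -0.07 over all tested genes, of which 1.1% fell. WWL70 alone gave 0 of 10 and a median of -0.04. The combination count was 10 without the 3 A1 libraries, 2 under median-ratio scaling and 2 without either Hep3B control library, and the lenvatinib count was 8 without the 3 A1 libraries and 0 without either Hep3B control or either lenvatinib library. In resistant Huh7 cells, where 12.3% of tested genes rose and 6.63% fell, the list split, with SESN2 and CHAC1 higher (log2 0.81 each) and PSAT1 and DDIT4 lower (log2 -0.999 and -0.80). The count of 4 was 0 without Huh7 control B1, 1 without resistant A1 and 2 without any one library of Huh7 control A1, resistant B1, Hep3B control, lenvatinib or WWL70. Between the untreated lines 9 of the 10 list genes were lower in Huh7 and 0 higher, while 21.1% of tested genes were lower. All 10 fold changes were negative there, with a median of log2 -1.74 against -0.16 over all tested genes. AARS1 stood at log2 -0.18 in that comparison and did not pass. The genes whose pattern over 12 libraries was most like that of AARS1 were CEBPB, WIPI1 and TXNIP (Pearson's r 0.95, 0.94 and 0.94 on log2(TPM + 1), over 10807 genes). These r values share libraries, TPM scaling and cell line and carry no test.

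AARS2, the mitochondrial alanyl-tRNA synthetase, was the least abundant of the 10 (median 14.9 TPM, chromosome 6 at 44299654 to 44313326, minus strand). It had 7.29 and 14.2 TPM with WWL70 plus lenvatinib, 15.0 and 14.6 TPM with lenvatinib, 18.4 and 18.1 TPM with WWL70, and 17.9 and 18.9 TPM in Hep3B control cells. The combination's A1 library was the lowest of all 12 and its B1 library was near those of lenvatinib. The fold change with the combination was log2 -0.79 (SE 0.28, adjusted p = 0.109), and -0.36 without the 3 A1 libraries (SE 0.14, adjusted p = 0.118). In Huh7 it had 12.04 and 14.9 TPM in resistant cells, against 14.1 and 16.6 TPM in control cells, with overlap. Of 16 other mitochondrial synthetases, 1 rose (CARS2, log2 0.98) and 1 fell (TARS2, log2 -0.74) with WWL70 plus lenvatinib, where 2.44% of tested genes rose and 6.41% fell. Fold changes of 11 of the 16 were negative there, with a median of log2 -0.43 against -0.34 over all tested genes. In resistant cells 2 of the 16 fell (MARS2 and NARS2), where 6.63% of tested genes fell. All 16 fold changes were negative in that comparison, with a median of log2 -0.40 against -0.06 over all tested genes. AARS2 overlaps TMEM151B on the opposite strand, and whether strand was used in counting is not given in the sources used here.

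EP300 (p300) and CREBBP (CBP) are paralogous acetyltransferases and transcriptional co-activators. EP300 lies on chromosome 22 at 41091786 to 41180079 (plus strand) and CREBBP on chromosome 16 at 3725054 to 3880726 (minus strand). EP300 had 3.31 and 58.3 TPM in the A1 and B1 libraries of WWL70 plus lenvatinib, 31.4 and 62.4 TPM with lenvatinib, 63.4 and 68.4 TPM with WWL70, and 63.7 and 64.9 TPM in Hep3B control cells. CREBBP had 7.27 and 46.3 TPM, 28.2 and 47.5 TPM, 46.0 and 47.4 TPM, and 49.1 and 51.4 TPM in the same order of groups. For both genes the A1 libraries of the combination and of lenvatinib were low, while their B1 libraries were close to, and a little below, the control libraries.

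In Huh7, EP300 had 17.0 and 53.2 TPM in resistant cells, against 46.6 and 49.4 TPM in control cells. CREBBP had 15.9 and 35.9 TPM in resistant cells, against 28.9 and 26.0 TPM in control cells. In both genes the resistant A1 library was below both controls and the resistant B1 library above them.

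Neither gene passed the test in any comparison with all 12 libraries. With WWL70 plus lenvatinib, EP300 gave log2 -2.03 (SE 1.01, adjusted p = 0.19) and CREBBP log2 -1.37 (SE 0.69, adjusted p = 0.195). Without the 3 A1 libraries these were -0.14 (SE 0.09, adjusted p = 0.305) and -0.12 (SE 0.10, adjusted p = 0.451), and lenvatinib alone gave -0.04 and -0.08. In resistant cells EP300 gave log2 -0.65 (SE 1.01, adjusted p = 0.715), and 0.14 without the 3 A1 libraries (SE 0.09, adjusted p = 0.23). CREBBP there gave log2 -0.18 (SE 0.69, adjusted p = 0.897), but 0.38 without them (SE 0.10, adjusted p = 0.0215), which is the opposite direction and past the threshold. Between the untreated lines, whose libraries are all kept, the smaller spread of that setting made both pass: EP300 was lower in Huh7 control cells by log2 -0.41 (SE 0.07, adjusted p = 0.0021, against 0.794 with all libraries) and CREBBP by log2 -0.85 (SE 0.08, adjusted p = 0.000128, against 0.388). In that setting the resistant group and both lenvatinib-exposed groups have 1 library each, assumed to vary like the others.

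Both genes have long transcripts, 9587 bases for EP300 and 10803 bases for CREBBP (longest principal transcript in GENCODE 29). Among 948 tested genes with transcripts over 8000 bases, the median of A1 minus B1 was -1.59 (log2) with WWL70 plus lenvatinib, -0.49 with lenvatinib and -0.70 in resistant cells. For EP300 it was -3.78, -0.97 and -1.59, and 0.105% of those long genes were lower than EP300 with WWL70 plus lenvatinib, 13.5% with lenvatinib and 3.59% in resistant cells. For CREBBP it was -2.51, -0.73 and -1.13. HDAC2, as long at 9874 bases, did not share this: its values were -0.34, 0.13 and -0.05, above 87.1%, 94.8% and 90.0% of the long genes. Genes with transcripts up to 2000 bases had medians of 0.32, 0.17 and 0.23. The part of this length pattern in the EP300 and CREBBP values was not tested, and without the 3 A1 libraries the fold changes are those given above.

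**Figure D3:**
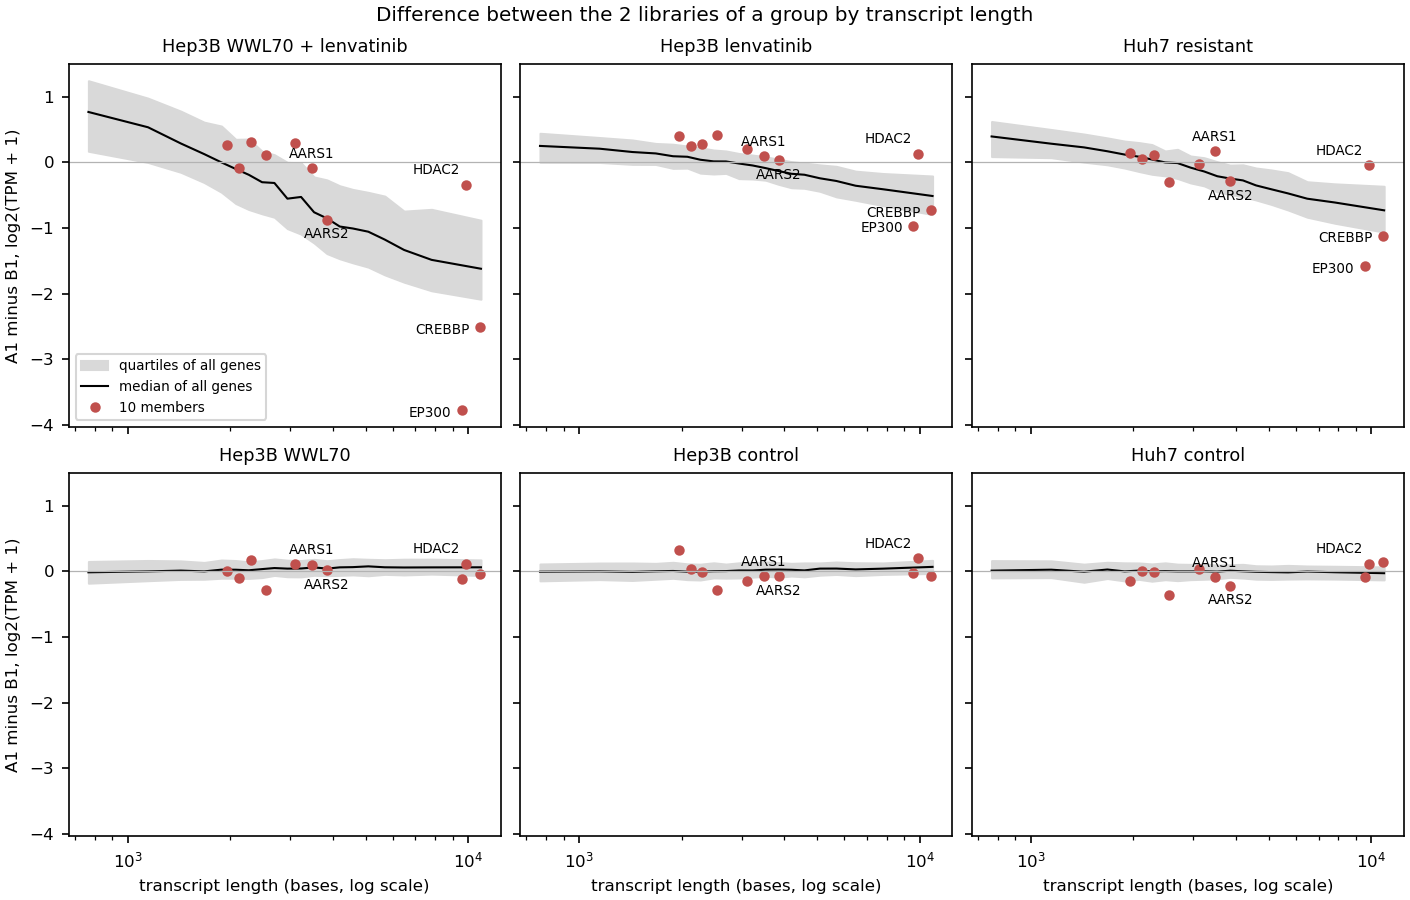
Log2(TPM + 1) in library A1 minus library B1 (vertical axis) against transcript length in bases (horizontal axis, log scale) for the 6 groups, with the median (line) and quartiles (band) of all tested genes in 20 length bins, and the 10 genes as points. Long genes are lower in A1 in the upper 3 groups, most with WWL70 plus lenvatinib, where EP300 is at -3.78 and CREBBP at -2.51, and the band is flat in the lower 3.

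KAT2A (GCN5), the acetyltransferase of the SAGA and ATAC complexes, fell in resistant Huh7 cells. The gene lies on chromosome 17 at 42113108 to 42121358, minus strand. It overlaps AC099811.2, annotated as protein coding on the same strand, and its level is uncertain to the extent that reads were shared. KAT2A had 32.2 and 32.8 TPM in resistant cells, against 51.0 and 49.8 TPM in Huh7 control cells. The groups did not overlap, which held for 67.6% of tested genes. The gap between them was wider than the difference within either pair. The fold change was log2 -0.62 (SE 0.16, adjusted p = 0.0293). The call is fragile, since it held in 11 of 21 alternatives, and was lost under median-ratio scaling (adjusted p = 0.237), with length adjustment (adjusted p = 0.0956), and without any one library of Huh7 control (adjusted p = 0.153 and 0.13), resistant (0.12 and 0.0958), Hep3B control (0.0571 and 0.0575) or WWL70 cells (0.0561 each). The fold change stayed between log2 -0.64 and -0.52. The summed TPM of the 6 hepatocyte and hepatoma markers was 47051 to 52915 in resistant cells, against 33063 to 34424 in Huh7 control cells. The sums of the leukocyte markers (96.0 to 101 against 527 to 555 TPM), fibroblast markers (20.1 to 25.7 against 1.96 to 2.16 TPM) and endothelial markers (6.39 to 8.34 against 11.5 to 11.9 TPM) moved as well. Their part in the resistant values of KAT2A and of HDAC1 was not tested.

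In Hep3B, KAT2A had 84.6 and 68.5 TPM with WWL70 plus lenvatinib, 85.1 and 74.1 TPM with lenvatinib, 75.1 and 69.7 TPM with WWL70, and 66.5 and 73.5 TPM in control cells. Both lenvatinib libraries were above control and the other groups overlapped with it, and the lenvatinib fold change was log2 0.18 (SE 0.16, adjusted p = 0.753). The resistance effect minus the lenvatinib effect was log2 -0.80 (SE 0.23, adjusted p = 0.0863), which passed in 4 of 20 alternatives: with array weights (adjusted p = 0.0142), without either combination library (0.0113 and 0.0106) and without the 3 A1 libraries (0.0141). The highest adjusted p was 0.336. SPON2, MPLKIP and CBS had patterns most like KAT2A over the 12 libraries (Pearson's r 0.99, 0.97 and 0.97).

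KAT5 (TIP60), the acetyltransferase of the NuA4 complex, differed between the cell lines, and no treatment effect on it passed. KAT5 lies on chromosome 11 at 65711996 to 65719604, plus strand. KAT5 had 24.6 and 24.7 TPM in Huh7 control cells, against 65.0 and 65.4 TPM in Hep3B control cells. The fold change was log2 -1.37 (SE 0.18, adjusted p = 0.000388) and passed in 20 of 20 alternatives. In resistant cells it had 26.2 and 24.2 TPM, around the Huh7 control (log2 0.03, SE 0.18, adjusted p = 0.94). In Hep3B it had 69.8 and 56.2 TPM with WWL70 plus lenvatinib, 67.0 and 54.8 TPM with lenvatinib and 65.7 and 58.2 TPM with WWL70, each pair lying on both sides of the control libraries. C8G, FUZ and TFEB had the most similar patterns, each with a Pearson's r of 0.99. KAT5 overlaps RNASEH2C on the opposite strand, and without strand their reads cannot be told apart.

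Of 16 KAT complex partners, 1 fell with WWL70 plus lenvatinib (BRD8, log2 -0.94, a bromodomain subunit of NuA4) and 1 fell in resistant cells (RUVBL1, 49.4 ± 5.35 TPM against 111 ± 6.33 TPM in control, SD, n = 2 each, log2 -1.16), an ATPase shared by NuA4 and other complexes. These counts are at the shares of all tested genes that fell, 6.41% and 6.63%. None of the 16 passed with lenvatinib, with WWL70 or between the lines, where 2.48%, 0.0147% and 34.4% of tested genes passed. With lenvatinib and with WWL70, 1 and 0 of the 16 had an unadjusted p under 0.05, as did 13.4% and 2.87% of tested genes.

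Other proposed writers, and enzymes that handle lactyl-CoA or lactoylglutathione, rose in places. Of 13, ACSS2, a cytosolic and nuclear acyl-CoA synthetase, rose with WWL70 plus lenvatinib (58.8 ± 0.465 TPM against 34.4 ± 0.869 TPM in control, SD, n = 2 each, log2 0.76, adjusted p = 0.0414), as did 2.44% of tested genes. In resistant Huh7 cells 3 rose and 0 fell: ACSS2 (182 ± 5.7 TPM against 67.1 ± 12.7 TPM in control, log2 1.44, adjusted p = 0.000829), SUCLG1, a succinyl-CoA synthetase subunit (log2 0.96), and HAGH, a glyoxalase that hydrolyses lactoylglutathione (log2 0.93). Of all tested genes 12.3% rose there. Values of the 3 did not overlap with control, which held for 67.6% of tested genes. Fold changes of 7 of the 13 were negative in resistant cells, and of 9 with WWL70 plus lenvatinib. Their medians were log2 -0.04 and -0.46, against -0.06 and -0.34 over all tested genes. Between the untreated lines 3 were higher in Huh7 (HDAC6, ACSS2 and GLO1) and 2 lower (KAT8 and SUCLG2). Of all tested genes 13.3% were higher and 21.1% lower. With lenvatinib alone and with WWL70 alone 0 passed. At an unadjusted p under 0.05 there were 1 and 0, against 13.4% and 2.87% of tested genes.

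HDAC1, a class I deacetylase of the SIN3, NuRD and CoREST complexes, was higher in Huh7 than in Hep3B and fell in resistant cells. It is on chromosome 1 at 32292086 to 32333635, plus strand. HDAC1 had 129 and 124 TPM in resistant cells, against 209.7 and 209 TPM in Huh7 control cells. In Hep3B it had 72.5 and 76.6 TPM with WWL70 plus lenvatinib, 84.9 and 71.2 TPM with lenvatinib, 72.3 and 77.9 TPM with WWL70, and 96.3 and 93.8 TPM in control cells. All 6 treated Hep3B libraries were below both Hep3B controls, and both resistant libraries were below both Huh7 controls.

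The fall in resistant cells was log2 -0.72 (SE 0.14, adjusted p = 0.00769). It passed in 18 of 21 alternatives, and was lost under median-ratio scaling (log2 -0.62, adjusted p = 0.0763) and without Huh7 control A1 or B1 (adjusted p = 0.0602 and 0.0575). Huh7 control cells exceeded Hep3B control cells by log2 1.13 (SE 0.14, adjusted p = 0.000318), in 20 of 20 alternatives. None of the Hep3B treatment effects on HDAC1 passed: WWL70 plus lenvatinib gave log2 -0.35 (SE 0.14, adjusted p = 0.136), lenvatinib -0.29 (SE 0.14, adjusted p = 0.447) and WWL70 -0.34 (SE 0.14, adjusted p = 1). Groups that do not overlap are common here, at 54.7%, 59.1% and 47.8% of tested genes in those comparisons. Under median-ratio scaling the combination fold change turned to log2 0.09. Without the 3 A1 libraries, which leaves 1 library in each of the combination and lenvatinib groups, it was -0.31 and lenvatinib gave -0.41.

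The resistance effect minus the lenvatinib effect on HDAC1 was log2 -0.44 (SE 0.20, adjusted p = 0.311). PSMD14, YBX1 and CCR6 had the patterns most like HDAC1 (Pearson's r 0.99, 0.99 and 0.98). There are 2 HDAC1 pseudogenes in the annotation, and the level of HDAC1 is uncertain to the extent that reads were shared with them.

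HDAC2, the close relative that shares the same complexes, was abundant and steady. It is on chromosome 6 at 113933028 to 114011308, minus strand, and its 12 values spanned 162 to 221 TPM, a ratio of 1.36 and the narrowest of the 10 genes. HDAC2 had 167 and 172 TPM in resistant cells, against 221 and 203 TPM in Huh7 control cells. These did not overlap, but the fold change did not pass (log2 -0.32, SE 0.16, 95% interval -0.68 to 0.04, adjusted p = 0.207), and 67.6% of tested genes did not overlap in that comparison. In Hep3B it had 162 and 206 TPM with WWL70 plus lenvatinib, 214 and 196 TPM with lenvatinib, 193 and 179 TPM with WWL70, and 209 and 182 TPM in control cells. Every treated pair overlapped with control.

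HDAC3, the catalytic subunit of the NCoR and SMRT complexes, differed between the lines. Its position is chromosome 5 at 141620876 to 141636870, minus strand. HDAC3 had 69.8 and 77.4 TPM in Huh7 control cells, against 49.4 and 39.2 TPM in Hep3B control cells (log2 0.73, SE 0.20, adjusted p = 0.02). This passed in 17 of 20 alternatives, and was lost without Hep3B control B1 (adjusted p = 0.159) and without Huh7 control A1 or B1 (adjusted p = 0.0668 and 0.123). Resistant cells had 77.5 and 70.2 TPM, the same range as their control (log2 0.00, SE 0.20). In Hep3B it had 59.8 and 49.4 TPM with WWL70 plus lenvatinib, 58.8 and 44.2 TPM with lenvatinib and 44.5 and 44.2 TPM with WWL70. None of these differed from control by the test, with fold changes of log2 0.30, 0.21 and 0.01 (SE 0.20 each) and adjusted p of 0.3, 0.77 and 1. H2AC25, ATP13A1 and SDHAF2 had the patterns most like it (Pearson's r 0.97, 0.96 and 0.96).

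SIRT3, the main NAD-dependent deacetylase of the mitochondrial matrix, was lower in Huh7. The gene is on chromosome 11 at 215458 to 236931, minus strand, opposite PSMD13 with which it overlaps. SIRT3 had 10.3 and 13.4 TPM in Huh7 control cells, against 26.1 and 32.03 TPM in Hep3B control cells (log2 -1.23, SE 0.24, adjusted p = 0.00371, past the threshold in 20 of 20 alternatives). Resistant cells had 16.2 and 20.1 TPM, above both Huh7 controls. That difference did not pass (log2 0.58, SE 0.24, 95% interval 0.04 to 1.12, adjusted p = 0.134). Without the 3 A1 libraries, which leaves 1 resistant library, it was log2 0.73. In Hep3B the values were 29.3 and 27.0 TPM with WWL70 plus lenvatinib, 37.8 and 27.9 TPM with lenvatinib, and 28.6 and 34.9 TPM with WWL70, all overlapping with control. MAMSTR, CTBP1 and TMEM129 had the patterns most like SIRT3 (Pearson's r 0.97, 0.97 and 0.96).

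**Figure D4:**
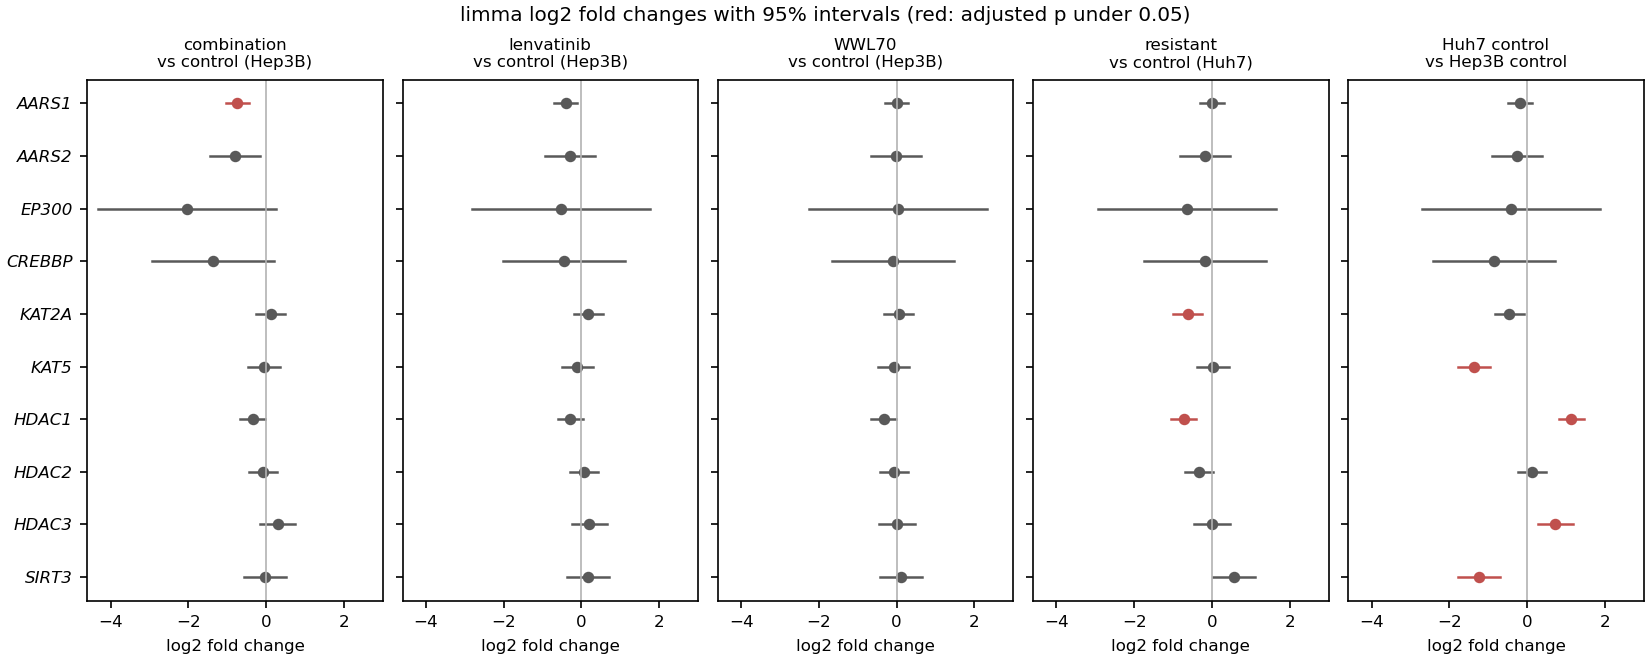
Limma log2 fold change of log2(TPM + 1) (horizontal axis) with its 95% interval for the 10 genes (rows) in 5 comparisons (panels), red where the adjusted p over 13645 genes was under 0.05. AARS1 is at -0.74 in the first panel, KAT2A at -0.62 and HDAC1 at -0.72 in the resistant panel, and the intervals of EP300 and CREBBP are the widest.

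Among other deacetylases and sirtuins, 13 genes in all, 1 rose and 1 fell in resistant cells, near the 12.3% and 6.63% of all tested genes that did. SIRT2, a cytosolic sirtuin, had 51.0 ± 1.81 TPM in resistant cells and 17.5 ± 0.0177 TPM in Huh7 control cells (SD, n = 2 each, log2 1.49, adjusted p = 0.000642). HDAC11 stood at 8.75 ± 0.046 TPM in resistant cells and 17.9 ± 0.058 TPM in control cells (log2 -0.96, adjusted p = 0.00545). With lenvatinib, WWL70 or both in Hep3B 0 of 13 passed, where 2.48%, 0.0147% and 8.85% of tested genes did. With lenvatinib and with WWL70, 3 and 0 had an unadjusted p under 0.05, as did 13.4% and 2.87% of tested genes. Between the untreated lines 6 were lower in Huh7 and 0 higher, among them SIRT5 (log2 -1.33), the matrix desuccinylase, and HDAC11 (log2 -1.07), while 21.1% of tested genes were lower.

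Subunits that hold HDAC1, HDAC2 or HDAC3 in complexes numbered 24. In resistant cells 2 fell and 0 rose: KDM1A, the histone demethylase of the CoREST complex (80.4 ± 2.64 TPM against 145 ± 0.22 TPM in control, SD, n = 2 each, log2 -0.84, adjusted p = 0.00229), and RBBP7, a histone-binding subunit (log2 -0.62). That count is near the 6.63% of tested genes that fell. HDAC1 fell by log2 0.72 in the same libraries. With WWL70 plus lenvatinib, with lenvatinib and with WWL70 0 passed, where 8.85%, 2.48% and 0.0147% of tested genes did. The median with WWL70 plus lenvatinib was log2 -0.45, against -0.34 over all tested genes. With lenvatinib and with WWL70, 1 and 0 had an unadjusted p under 0.05, as did 13.4% and 2.87% of tested genes. Between the lines 4 were higher in Huh7, including SAP30, a SIN3 complex subunit (log2 1.68), and 7 lower, including MTA1, of the NuRD complex (log2 -1.29), where 13.3% of tested genes were higher and 21.1% lower. Of 3 proposed lactylation readers, SMARCA4, the ATPase of the BAF complex, fell in resistant cells (log2 -0.46, adjusted p = 0.0391), where 6.63% of tested genes fell. With WWL70 plus lenvatinib, with lenvatinib and with WWL70 0 of the 3 passed, against the 8.85%, 2.48% and 0.0147% given above. Between the lines 0 passed, where 34.4% of tested genes did.

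Genes that make and move lactate also differed. LDHA had 589 and 624 TPM in resistant cells, against 1718 and 1905 TPM in Huh7 control cells (log2 -1.58, SE 0.14, adjusted p = 0.000101). In Hep3B it had 255 and 265 TPM with WWL70 plus lenvatinib, 301 and 256 TPM with lenvatinib, 416 and 362 TPM with WWL70, and 419 and 388 TPM in control cells. The combination value passed (log2 -0.63, SE 0.14, adjusted p = 0.031), and that of lenvatinib did not (log2 -0.54, SE 0.14, adjusted p = 0.114). Of 15 tested genes of lactate production and transport, 4 fell and 0 rose in resistant cells: LDHA, PKM (log2 -0.88), the lactate exporter SLC16A3 (log2 -0.83) and HK2 (log2 -1.34), while 6.63% of tested genes fell. With WWL70 plus lenvatinib 4 fell, including HK2 and MPC1, and MPC2 rose, where 6.41% of tested genes fell and 2.44% rose. With lenvatinib alone MPC1, a subunit of the mitochondrial pyruvate carrier, fell (log2 -0.98, adjusted p = 0.0397), as did 1.1% of tested genes. Between the untreated lines 7 were higher in Huh7, including LDHA and PKM, and 1 lower (PDK4), where 13.3% of tested genes were higher and 21.1% lower. LDHA in Huh7 control cells stood above Hep3B control cells by log2 2.16 (SE 0.14, adjusted p = 7.1e-06). ABHD6, the target of WWL70, had 10.7 and 10.1 TPM with WWL70, against 8.23 and 7.93 TPM in control cells, which did not pass (log2 0.33, SE 0.30, adjusted p = 1).

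Ranked by group mean, the members gave different orders. AARS1 was lowest with WWL70 plus lenvatinib and next lowest with lenvatinib, and libraries of those neighbouring groups did not overlap, nor did those of lenvatinib and Huh7 control cells. HDAC1 ran from Huh7 control through resistant Huh7 to Hep3B control cells without overlap between neighbours, and the 3 treated Hep3B groups below them overlapped each other. KAT2A was lowest in resistant cells, then Huh7 control cells, each apart from the next, and neighbouring Hep3B groups overlapped, although lenvatinib and Hep3B control cells did not. KAT5 and SIRT3 separated every Hep3B group from both Huh7 groups, and HDAC3 did so in the other direction. For HDAC2 every pair of neighbouring groups overlapped. Per length, median levels over the 12 libraries were 268 TPM for AARS1, 195 for HDAC2, 89.3 for HDAC1, 69.1 for KAT2A, 57.2 for KAT5, 55.7 for EP300, 54.1 for HDAC3, 41.0 for CREBBP, 27.5 for SIRT3 and 14.9 for AARS2. The ranges of KAT5, EP300 and HDAC3 over the libraries overlapped, and their medians are close beside those ranges.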

How the data were processed

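The authors deposited TPM (length-corrected transcript abundance) per gene for 12 libraries as one table, with mRNA captured on beads and fragmented by heat before sequencing on a NovaSeq X Plus, per the labels' protocols. The submitters' processing notes name fastp 0.18.0 and the hg38 genome. No aligner, quantifier or annotation is given in the sources used here. Gene names came from the table (19702 of 20307 identifiers), and positions and lengths from GENCODE 29. TPM sums to 1000000 in each library and keeps no depth, so depth and counting error are unknown, and the number of libraries limits the precision.

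Genes with at least 1 TPM in at least 2 libraries were kept. Log2(TPM + 1) was fitted in limma 3.58.1 (R 4.3.3; limma-trend, a mean per group, all 12 libraries, 6 residual and 2.91 prior degrees of freedom), and p-values were adjusted by Benjamini-Hochberg over 13645 genes at 0.05. Fold changes on this scale understate changes of low genes. Tables were made with Python 3.11.15 and pandas 2.3.3, and the fit was tested on simulated data. With 2 libraries in each of 2 groups, the smallest exact permutation p is 0.333.

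Same-lettered libraries were not treated as pairs in the main fit, since the labels pair no samples. A1 minus B1 correlated over 0.1 in 3 of 15 pairs of groups. In those 3 the correlation was strong: combination with lenvatinib (r 0.68), combination with resistant (0.74) and lenvatinib with resistant (0.62). The 21 alternatives were pseudocount 0.1, no filter, median-ratio scaling, rescaling without the 50 most abundant and mitochondrial genes, a fit within the cell line, a replicate block, array weights, length adjustment, leaving out each library, and leaving out 3 A1 libraries. The last was added after seeing the data.

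The members and the 9 lists (134 genes) were chosen with earlier results of these data known. Named genes are the members, ABHD6 and LDHA, at most 4 called genes per list and comparison with the smallest adjusted p, and, for each called member, the 3 genes (mean of at least 5 TPM) with the highest r. Genes named for a promoter element or a split are further ones, and TPM values of list genes come from the same table.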

Additional observations from a re-analysis of the deposited data

Results flagged for a closer look

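Effects of resistance in Huh7 and of lenvatinib in Hep3B, each against its own control, differed for 8 genes of the lists (limma contrast of the 2 effects, adjusted over 13645 genes), and for none of the 10 members. These are 8 of 132 tested list genes, 6.06%, against 6.3% of all tested genes, so their number does not set the lists apart. The contrast also crosses cell lines and the length of exposure is unknown.

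LDHA had a resistance effect minus lenvatinib effect of log2 -1.04 (adjusted p = 0.0171), with 589 and 624 TPM in resistant cells, against 1718 and 1905 TPM in Huh7 control cells. KDM1A gave -0.90 (adjusted p = 0.0216), VARS1 -0.94 (adjusted p = 0.027) and SIRT2 1.06 (adjusted p = 0.0491).

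Among amino acid response genes, CHAC1 gave 1.62 (adjusted p = 0.0173), PHGDH 1.93 (adjusted p = 0.0279) and SESN2 1.05 (adjusted p = 0.0351). PHGDH had 139 and 113 TPM with lenvatinib, against 280.2 and 289 TPM in Hep3B control cells, and 433 and 290.0 TPM in resistant cells, against 198 and 224 TPM in Huh7 control cells. MPC1, a subunit of the mitochondrial pyruvate carrier, gave 1.17 (adjusted p = 0.0398).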

How the results depend on the processing

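Of 1660 member values under an alternative, 1596 stayed on the same side of the threshold, 37 passed only under the alternative and 27 only in the reported fit. The sign was kept in 1557 and changed in 103. Of those 103, 1 passed in either fit: CREBBP in resistant cells, log2 0.38 without the 3 A1 libraries, against -0.18. The others passed in neither, such as EP300 in the same comparison and setting (0.14 against -0.65), and SIRT3 and HDAC1 with the combination under median-ratio scaling (0.39 against -0.04, and 0.09 against -0.35). KAT5, HDAC1 and SIRT3 between the lines passed in each of 20 alternatives. The fit within the cell line gives no value between the lines or for the difference of effects. The causes of the changes below were not tested.

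Genes called are given for each comparison with all libraries, then under each alternative that moved the count by over 1.5 times, then as the range when single libraries were left out. Lenvatinib, 338: pseudocount 0.1 gave 225, the fit within the line 81, array weights 2249, length adjustment 917 and leaving out the 3 A1 libraries 2634, and single libraries 28 to 1649. WWL70, 2: pseudocount 0.1 gave 1, no filter 5, array weights 285, length adjustment 1, without the 3 A1 libraries 44, and single libraries 0 to 4. Combination, 1208: within the line 343, array weights 56, length adjustment 2298, without the 3 A1 libraries 3441, and single libraries 187 to 8669. Combination against lenvatinib, 3: no filter 13, median-ratio scaling 0, array weights 0, length adjustment 13, without the 3 A1 libraries 25, and single libraries 1 to 7826. Combination against WWL70, 1078: within the line 207, array weights 18, length adjustment 2301, without the 3 A1 libraries 3494, and single libraries 100 to 8593. Resistant, 2579: array weights 4407, length adjustment 4121, without the 3 A1 libraries 6462, and single libraries 1249 to 5426. Huh7 against Hep3B control, 4688: array weights 9472, without the 3 A1 libraries 9385, and single libraries 2952 to 7347. Difference of effects, 860: array weights 1972, length adjustment 1445, without the 3 A1 libraries 3317, and single libraries 454 to 2245.

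Members called changed as follows. Lenvatinib, 0: array weights 1, without the 3 A1 libraries 2, single libraries 0 to 1. WWL70, 0: array weights 1, single libraries 0 to 0. Combination, 1: median-ratio scaling, array weights and length adjustment 0, without the 3 A1 libraries 2, single libraries 0 to 5. Combination against lenvatinib, 0: single libraries 0 to 4. Combination against WWL70, 1: median-ratio scaling, the fit within the line, array weights and length adjustment 0, single libraries 0 to 4. Resistant, 2: median-ratio scaling 0, length adjustment 1, without the 3 A1 libraries 4, single libraries 0 to 3. Huh7 against Hep3B control, 4: array weights 7, without the 3 A1 libraries 8, single libraries 3 to 5. Difference of effects, 0: array weights 1, without the 3 A1 libraries 2, single libraries 0 to 1.

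The letters A1 and B1 pair no samples by the labels, and correlations of A1 minus B1 between groups ran from -0.124 to 0.739. The highest were those among the combination, lenvatinib and resistant groups (0.62 to 0.74). With the replicate block the counts of genes were 313 with lenvatinib, 2 with WWL70, 1500 with the combination, 1 and 1379 for the combination against lenvatinib and WWL70, 2738 in resistant cells, 4947 between the lines and 870 for the difference. The share of higher calls was 27.6% with the combination, against 48.3% under median-ratio scaling and 42.2% after rescaling, 30.1% against WWL70 (51.5% and 42.0%), 38.6% between the lines (49.4% under median-ratio scaling and 51.2% with length adjustment) and 55.6% with lenvatinib (68.1% after rescaling). Depth is unknown, and 2 libraries a group limit all tests.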
